A study of Mus musculus with 18 samples.

Results

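The 9 genes described here encode enzymes of mitochondrial fatty acid oxidation and ketone body formation: Cpt1a, Cpt2, Acadvl, Acadl, Acadm, Hadha, Hadhb, Acat1 and Bdh1. They were taken by symbol, with every probe set that carried 1 of these symbols alone, which gave 18 of 34945 probe sets and 9 of 18193 genes. All 9 genes and 17 of their 18 probe sets passed the filter on dim values, and the 14201 genes that passed it in all were tested. Expression was measured on Affymetrix arrays in whole livers of male C57BL/6J mice aged 62 weeks, with 1 array for each of 3 mice in each of 6 groups. From 5 weeks of age the HF+CR, HF+Ex and HF mice received a diet with 60% fat, and the LF+CR, LF+Ex and LF mice a diet with 10% fat. HF and LF mice fed freely and had no other intervention. HF+CR and LF+CR mice were kept at 30% calorie restriction relative to the intake of the freely fed mice on the same diet, and HF+Ex and LF+Ex mice had a running wheel for voluntary exercise. All mice lived in individual cages and carried no transgene or deletion that the labels name. Neither the fed state nor the hour of sampling is given. In whole liver, fewer cells of a type and less RNA per cell cannot be told apart.

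Fatty acids enter mitochondria as carnitine esters and are then shortened in repeated rounds of oxidation, each of which releases acetyl-CoA. In the liver much of this acetyl-CoA is turned into ketone bodies, which are exported as fuel when carbohydrate is scarce. The entry step is held back by malonyl-CoA, the product of the acetyl-CoA carboxylases, and the transcription factor PPARalpha is known to drive many genes of the pathway in fasting.

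Cpt1a and Cpt2, which encode the carnitine palmitoyltransferases of the outer and inner mitochondrial membrane, were lower in calorie-restricted livers on the low-fat diet than in freely fed livers on that diet. Cpt1a fell by 28.1% and Cpt2 fell by 23.6%. Acat1 fell by 16.1% in the same comparison. All 3 calls were lost without 4 arrays that held pancreatic transcripts and in fits of only the groups compared. Each was also lost without some single arrays. With restriction on the high-fat diet none of the 9 genes was called, while 6.07% of all genes were. All 9 log2 fold changes were below 0 there, and the diets were not shown to differ. With the high-fat diet Acat1 and Bdh1, at the start and the end of the ketone pathway, were higher than with the low-fat diet over the 3 regimens, by 18.1% and 16.1%. Voluntary running gave no call among the 9 genes on either diet. Of all genes 0.00704% were called with running on the low-fat diet and 0% on the high-fat diet. Acadl, Acadvl and Hadha passed in no comparison. Nor did Hadhb with the probe set that represents it, while its second brightest one was lower in LF+CR than in LF livers.

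The regions upstream of the genes are shown for 3 members. Of the 9 genes, 8 matched RefSeq's promoter table by symbol (GRCm38.p6), each with the 250 bases before an annotated start. Hadha and Hadhb, the 2 subunit genes of the mitochondrial trifunctional protein, start in opposite directions on chromosome 5 with 272 bases between their starts, so that the window of Hadhb covers most of the stretch that both genes share. It is shown for that arrangement, and Cpt2 for its lower level with restriction. Acadm is shown as a member with a match to AGGTCA. Each is written 5′ to 3′ on the strand of the gene, at chr5:30155003-30155252 (plus strand) for Hadhb, chr4:107923590-107923839 (minus strand) for Cpt2 and chr3:153944644-153944893 (minus strand) for Acadm. Capitals mark matches on either strand to GGGCGG, the core of the GC box, or to AGGTCA, the element that many nuclear receptors bind.
Hadhb: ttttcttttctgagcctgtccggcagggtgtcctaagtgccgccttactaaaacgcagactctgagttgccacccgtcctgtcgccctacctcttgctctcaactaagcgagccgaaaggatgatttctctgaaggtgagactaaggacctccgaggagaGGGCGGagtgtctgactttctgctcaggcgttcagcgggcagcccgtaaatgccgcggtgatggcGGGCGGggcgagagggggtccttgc
Cpt2: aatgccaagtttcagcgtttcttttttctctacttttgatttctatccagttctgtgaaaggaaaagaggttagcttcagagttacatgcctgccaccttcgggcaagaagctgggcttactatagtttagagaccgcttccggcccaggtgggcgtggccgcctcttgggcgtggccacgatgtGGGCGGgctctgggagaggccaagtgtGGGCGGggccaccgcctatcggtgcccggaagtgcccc
Acadm: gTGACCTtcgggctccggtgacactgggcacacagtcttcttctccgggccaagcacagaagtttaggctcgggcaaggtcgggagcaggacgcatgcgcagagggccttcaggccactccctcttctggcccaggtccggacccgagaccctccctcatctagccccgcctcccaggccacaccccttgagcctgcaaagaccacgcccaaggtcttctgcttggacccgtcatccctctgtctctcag
GGGCGG was found in the windows of 5 of the 8 genes (Acadl, Cpt1a, Cpt2, Hadha and Hadhb), and in 32.7% of 32851 windows of all genes. The windows of Hadha and Hadhb overlap, and the only Hadha match, 188 bases before its start, is the Hadhb match 90 bases before its start. This 1 site thus counts for both genes. AGGTCA was found in the windows of 3 genes (Acadm, Acadvl and Cpt1a), and in 14% of all windows. CCAAT was found in the window of Cpt1a, and in 33.8% of all windows. TATAAA, in 12.4% of all windows, was in none of the 8. TCAAGGTCA, an extended form of AGGTCA that oestrogen-related receptors bind, was in 0.387% of all windows and in none of the 8. A pair of AGGTCA elements 1 base apart, with at most 1 mismatch in each, which is the pattern that PPARalpha binds with its partner, was in 1.98% of all windows and in none of the 8. All searches covered both strands, and every match to TCAAGGTCA also holds AGGTCA. These are matches of letters in a short window and show neither binding nor its absence.

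The label of the tissue was checked against markers. The 6 hepatocyte markers summed to an intensity of 71540 to 82311 over the 18 arrays, and the 2 measured adipocyte markers, Adipoq and Lep, to 111 to 191. Lep lay under the limit for dim signals on all 18. Acinar genes of the pancreas stood out on 4 arrays, where the 6 measured ones summed to 1498 to 3970 (LF+CR 1, LF+Ex 3, HF+Ex 1 and LF 1), against at most 833 on the other 14. LF+CR 2, HF+Ex 3 and HF 1 lay apart from the rest on the first principal component of all genes. On HF+Ex 2 the 4 skeletal muscle markers summed to 1659.85, against at most 639 on the other 17 arrays. Many called results of the 9 genes and of the pathway genes named are also given without the 4 arrays and without the 3. For others 1 or both of these fits are not given. Mean intensity was 304.9 to 307.8 on the 18 arrays. Intensities are on a linear scale and are not compared between probe sets, log2 fold changes are from limma on log2 of the intensity plus 16 with their standard error (SE), and adjusted p is limma's with Benjamini-Hochberg adjustment over the 14201 genes. A gene was called where adjusted p was under 0.05. The p-values measure the spread between single mice, 3 a group.

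**Figure D1:**
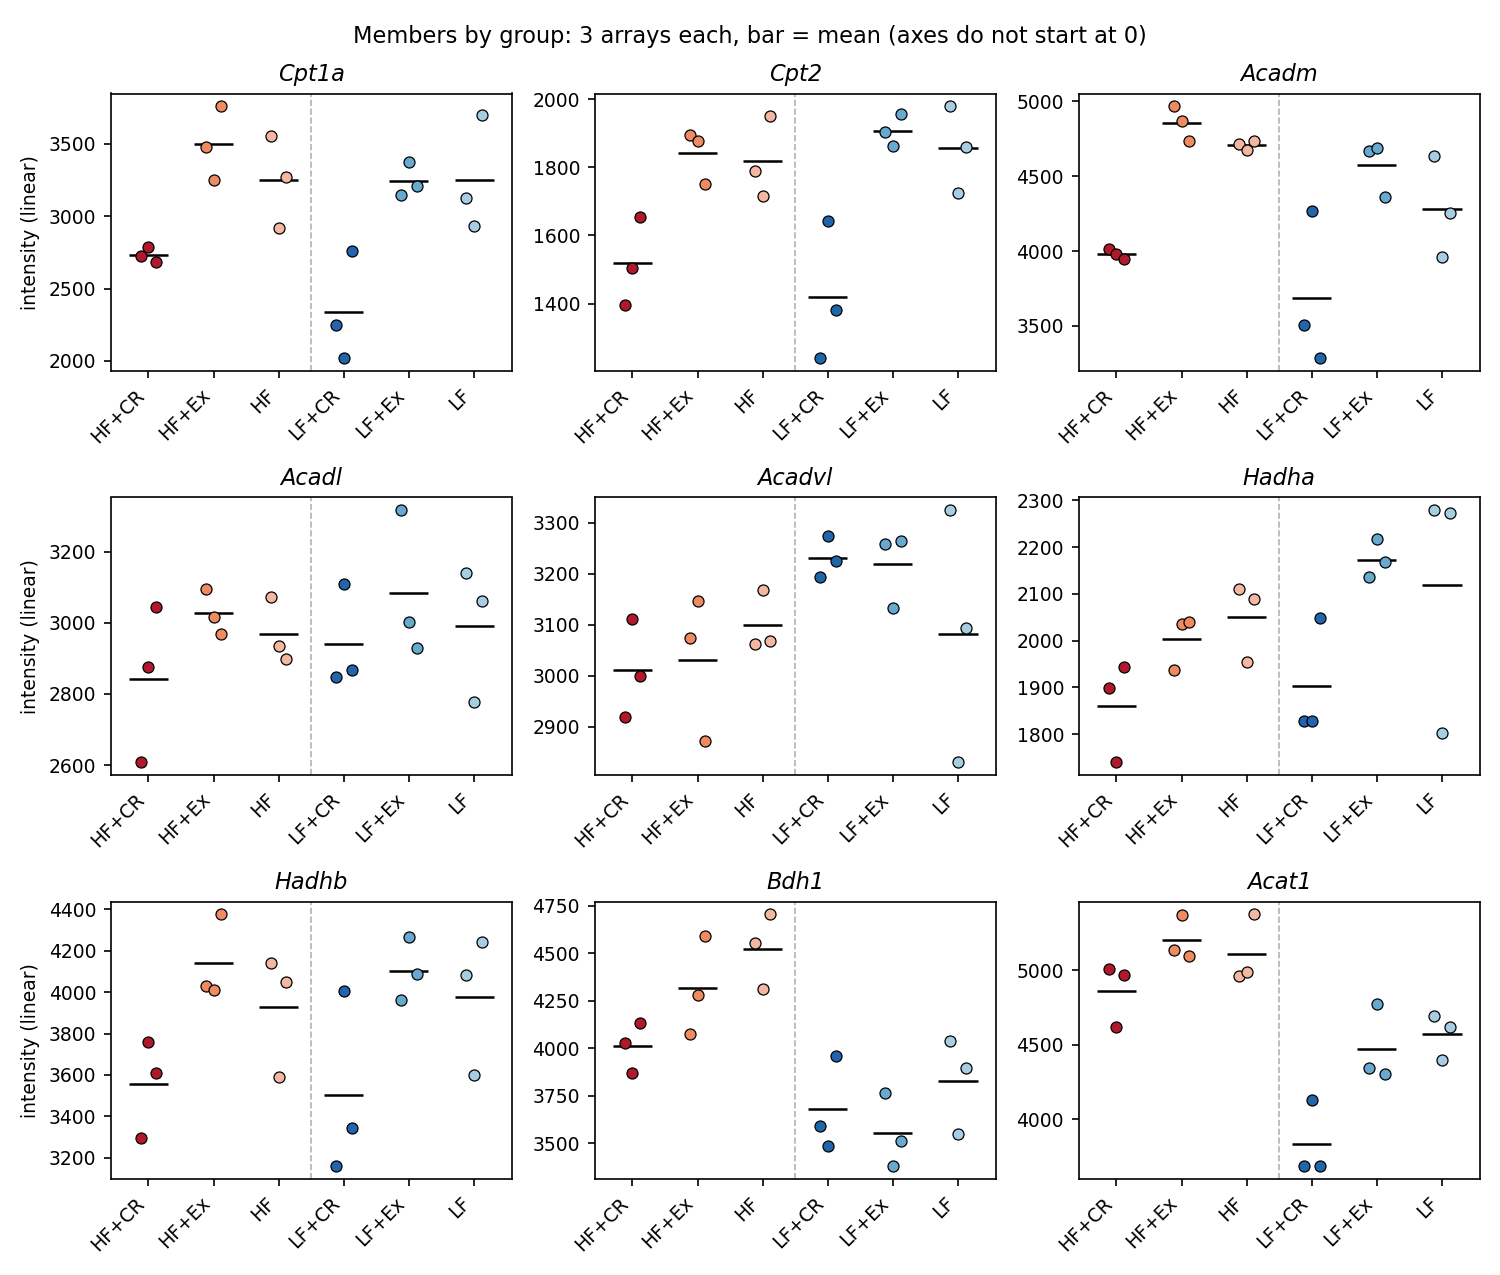
Intensity (linear, vertical axis, not starting at 0) of each of the 9 genes on each of the 18 arrays, as points by group with the group mean as a bar. HF+CR and LF+CR lie lowest for Cpt1a and Cpt2, and the 3 high-fat groups lie highest for Acat1 and Bdh1.

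Among the 6 groups, 5 of the 9 genes differed (F test of the limma fit): Acat1 (adjusted p = 0.00177), Cpt1a (0.0100), Cpt2 (0.0126), Acadm (0.0136) and Bdh1 (0.0139). Over all genes 14.3% passed this test. The 4 that did not were Hadhb (adjusted p = 0.172), Hadha (0.241), Acadvl (0.551) and Acadl (0.739). Their highest group mean was at most 1.18 times the lowest, against 1.27 to 1.49 times for the 5 that passed. Without the 4 arrays with pancreatic genes none of the 9 passed the F test, and without the 3 arrays apart on the principal component 3 did.

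Cpt1a carries the gate of the pathway, since its product makes the carnitine ester that leaves the cytosol. Its intensity was 2246, 2017 and 2757 in LF+CR livers, against 3125, 2932 and 3696 in LF livers. The restricted mice all lay below the freely fed ones, with a mean of 2340.0 ± 379 against 3251 ± 397 (SD, n = 3 each; log2 fold change -0.48, SE 0.107, adjusted p = 0.0153). In HF+CR livers it was 2721, 2786 and 2686, against 3556, 2919 and 3270.25 in HF livers. These groups did not overlap either, but the log2 fold change of -0.24 (SE 0.107) did not pass (adjusted p = 0.168). HF+Ex livers read 3478, 3253 and 3760.0 and LF+Ex livers 3144, 3375 and 3207, within or close to the ranges of the freely fed mice. In the order of means, HF+Ex, LF, HF and LF+Ex overlapped from each to the next, followed by a gap and then HF+CR and LF+CR, which overlapped. The call on the low-fat diet was lost without LF 3 (log2 -0.38, adjusted p = 0.0791), without LF+CR 1 (log2 -0.45, adjusted p = 0.0622), without LF+CR 2 (log2 -0.38, adjusted p = 0.0700) and without the 3 arrays apart on the principal component (log2 -0.38, adjusted p = 0.0569). Without the 4 arrays with pancreatic genes the difference was as large and not called (log2 -0.48, adjusted p = 0.147).

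Cpt2 encodes the transferase that turns the carnitine ester back into acyl-CoA inside the mitochondrion. It read 1239, 1642 and 1381 in LF+CR livers, against 1979.85, 1726 and 1861 in LF livers. No restricted mouse reached the lowest freely fed one (log2 fold change -0.39, SE 0.0912, adjusted p = 0.0203). On the high-fat diet it read 1395, 1503 and 1655 in HF+CR livers, against 1788, 1716.5 and 1950.46 in HF livers. The groups were again apart, with a log2 fold change of -0.26 (SE 0.0912) that did not pass (adjusted p = 0.0998). Both running groups, at 1895, 1877 and 1751 in HF+Ex and 1904, 1862 and 1956 in LF+Ex, lay above every restricted mouse. Within the LF+CR group the array with the lowest Cpt1a, LF+CR 2, had the highest Cpt2. The call on the low-fat diet was lost without LF 1, LF 3 or LF+CR 1 (adjusted p = 0.0816, 0.0625 and 0.0973), and without the 4 arrays with pancreatic genes the log2 fold change was -0.25 (adjusted p = 0.287). Without the 3 arrays apart on the principal component it was -0.50 and called (adjusted p = 0.00608).

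The acyl-CoA dehydrogenases open each round of oxidation, and the 3 genes differ in the chain length that their products prefer. Acadm, for medium chains, read 3507, 4271 and 3283 in LF+CR livers, against 4636, 3957 and 4252 in LF livers. Here LF+CR 2 lay above 2 of the 3 freely fed mice, and the log2 fold change of -0.22 (SE 0.0798) did not pass (adjusted p = 0.130). On the high-fat diet it read 4016, 3983 and 3944 in HF+CR livers, against 4716, 4674 and 4734 in HF livers. These groups were narrow and wide apart, with a mean of 3981 ± 36.0 against 4708 ± 30.5 (SD, n = 3 each), and the log2 fold change of -0.24 (SE 0.0798) did not pass (adjusted p = 0.0843). Acadl, for long chains, lay between 2607 and 3317 on all 18 arrays, and its group means between 2843 ± 221 in HF+CR and 3083 ± 206 in LF+Ex livers. Acadvl, for very long chains, lay between 2829.96 and 3325, with the highest mean in LF+CR livers (3231 ± 40.5) and the lowest in HF+CR livers (3010.48 ± 96.9). With restriction the log2 fold changes were -0.02 (95% interval -0.17 to 0.12) for Acadl and 0.07 (-0.05 to 0.20) for Acadvl on the low-fat diet, and -0.06 (-0.21 to 0.08) and -0.04 (-0.17 to 0.08) on the high-fat diet.

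Hadha and Hadhb encode the alpha and beta subunits of the trifunctional protein, which carries out the later steps of a round for long chains. Hadha read 1828, 1828 and 2049 in LF+CR livers, against 2279, 1803 and 2274 in LF livers, and the groups overlapped through LF 2 (log2 fold change -0.15, SE 0.0812, adjusted p = 0.364). Hadhb read 3158, 4008 and 3345 in LF+CR livers, against 4082, 3600.45 and 4241 in LF livers, and LF+CR 2 lay among the freely fed mice (log2 fold change -0.19, SE 0.0899, adjusted p = 0.287). On the high-fat diet Hadha had a log2 fold change of -0.14 (adjusted p = 0.287) with restriction and Hadhb one of -0.14 (adjusted p = 0.326). As a description over the 18 arrays, the 2 genes had Pearson's r of 0.591, and 0.342 after the group means were taken off. The nearest member to Hadhb was Cpt2 (r = 0.844), the highest r of the 36 pairs, and all pairs share the same arrays.

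Acat1 encodes the mitochondrial thiolase that joins 2 molecules of acetyl-CoA to acetoacetyl-CoA, the first step towards ketone bodies, and also serves the breakdown of isoleucine. It read 3689, 4132 and 3684 in LF+CR livers, against 4692, 4395 and 4621 in LF livers. Each restricted mouse lay below each freely fed one (log2 fold change -0.25, SE 0.0628, adjusted p = 0.0266). With the high-fat diet it read 5004, 4615 and 4965 in HF+CR livers, against 4957, 4986 and 5375 in HF livers, with overlap (log2 fold change -0.07, SE 0.0628, adjusted p = 0.494). The running groups read 5135, 5369 and 5098 in HF+Ex and 4344, 4772 and 4301 in LF+Ex livers. Between the restricted groups Acat1 was 26.8% higher in HF+CR than in LF+CR livers (log2 fold change 0.34, SE 0.0628, adjusted p = 0.00341). This call held without the 4 arrays with pancreatic genes (0.32, adjusted p = 0.0415) and without the 3 apart on the principal component (0.40, adjusted p = 0.00378). The call in LF+CR against LF was lost without LF 1, LF 3, LF+CR 1 or LF+CR 3 (adjusted p = 0.0889, 0.0855, 0.106 and 0.0764), and without the 4 arrays with pancreatic genes (log2 -0.21, adjusted p = 0.274). Without the 3 arrays apart on the principal component it held (log2 -0.31, adjusted p = 0.0214).

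Bdh1 encodes the dehydrogenase that turns acetoacetate into beta-hydroxybutyrate, the main circulating ketone body. It read 4026, 3868 and 4134 in HF+CR livers, 4071, 4282 and 4589 in HF+Ex livers and 4551, 4309 and 4705 in HF livers. With the low-fat diet it read 3589, 3484 and 3959.64 in LF+CR, 3765, 3377 and 3510.15 in LF+Ex and 4035, 3547 and 3895 in LF livers. Of the high-fat groups, HF+CR alone overlapped with the low-fat ones. HF against LF livers gave a log2 fold change of 0.24 (SE 0.0695) without overlap, which did not pass (adjusted p = 0.104), and HF+Ex against LF+Ex livers gave 0.28 (SE 0.0695, adjusted p = 0.0538). With restriction the log2 fold changes were -0.17 on the high-fat diet (adjusted p = 0.140) and -0.06 on the low-fat diet (adjusted p = 0.760).

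**Figure D2:**
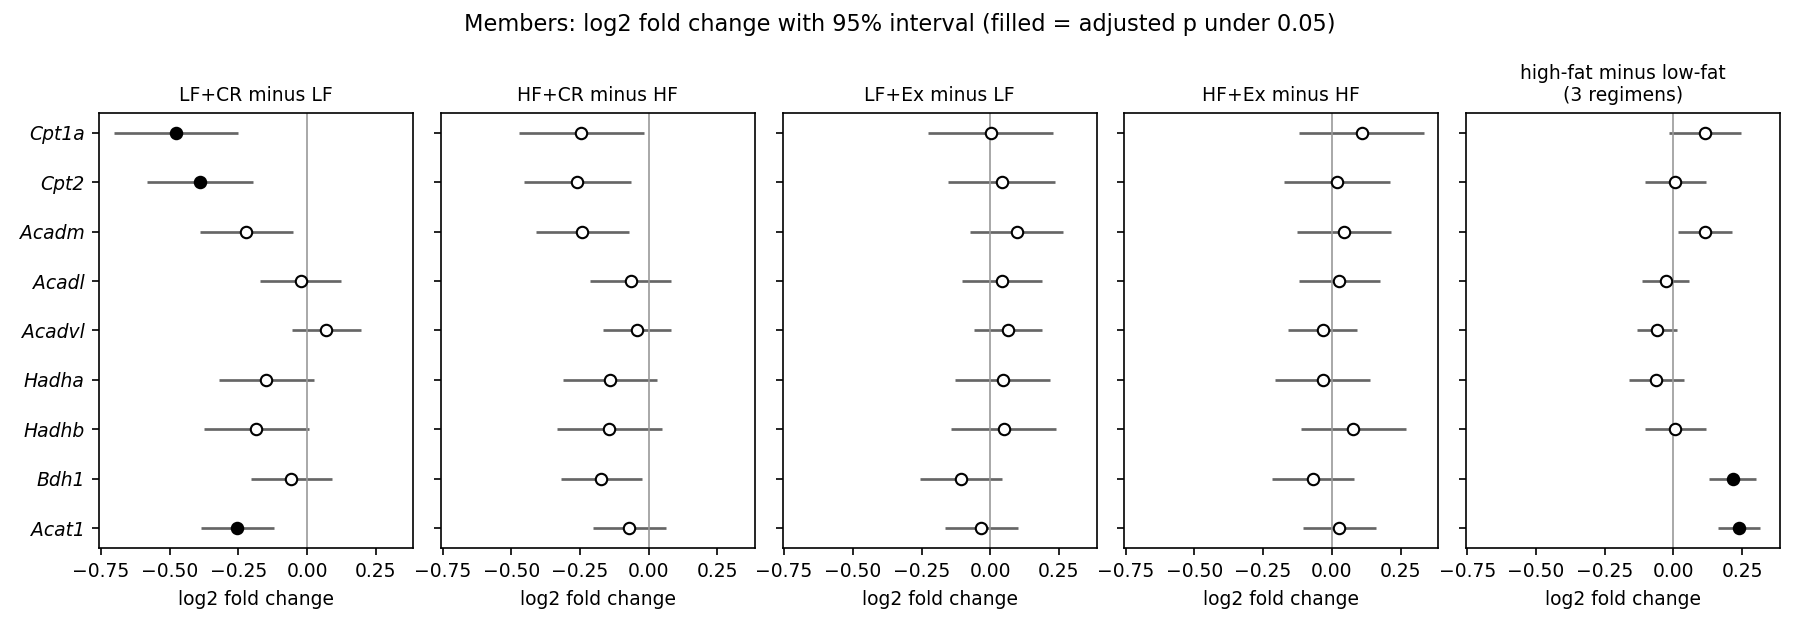
Log2 fold change (horizontal axis) of each of the 9 genes with its 95% interval in 5 comparisons, where a filled point has an adjusted p under 0.05. The intervals of Cpt1a, Cpt2, Acat1 and Acadm lie left of 0 in LF+CR minus LF, and all 9 points lie left of 0 in HF+CR minus HF. In high-fat minus low-fat the intervals of Bdh1, Acat1 and Acadm lie right of 0. The point of Acadm is open in each of these comparisons.

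With calorie restriction on the low-fat diet, 3 of the 9 genes were lower in LF+CR than in LF livers (Cpt1a, Cpt2 and Acat1) and none was higher. Of all genes 5.57% were called in this comparison and 3.27% were lower. The median log2 fold change was -0.19 over the 9 genes, against -0.01 over all genes. Beside this result, the 6 hepatocyte markers summed to 79614 to 82311 in LF+CR livers, against 74577 to 76156 in LF livers, and the 3 measured erythroid markers to 646.75 to 729.83 in LF+CR, against 1068 to 1242 in LF livers. The erythroid difference rested on Alas2, the 1 of the 3 that was lower, and their median log2 fold change was 0.10. Of the hepatocyte markers 2 of 6, Cps1 and Tat, were higher. The acinar genes summed to 621 to 2864 in LF+CR and to 637 to 2132 in LF livers, with 1 high array in each group. On LF+CR 2 the Kupffer cell markers summed to 12302, against 6573 and 6641 on LF+CR 1 and LF+CR 3. The stellate, lymphocyte, cholangiocyte and erythroid sums were also the highest of the group there (5344, 1027, 635 and 730). Its hepatocyte, sinusoidal endothelial, acinar and adipocyte sums were the lowest of the group. The part of these markers in the lower levels was not tested.

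On the high-fat diet none of the 9 genes was called in HF+CR against HF livers, while 6.07% of all genes were. By unadjusted p, 4 of the 9 were under 0.05 (Cpt1a, Cpt2, Acadm and Bdh1), as were 3620 of the 14201 genes (25.5%). All 9 log2 fold changes were below 0, with a median of -0.14 against 0.04 over all genes. For 5 of them (Cpt1a, Cpt2, Acadm, Hadha and Bdh1) the groups did not overlap, which was so for 31.3% of all genes. Neither group held an array with pancreatic genes. The 8 Kupffer cell markers summed to 5326 to 6220 in HF+CR, against 6932 to 10938 in HF livers, with none of the 8 called. The hepatocyte markers summed to 76632 to 79469 in HF+CR, against 72612 to 74491 in HF livers (Cps1 and Tat were higher). The erythroid markers summed to 1410.15 to 1548 in HF+CR, against 1011 to 1106 in HF livers (Alas2 and Slc4a1 were higher). The 6 sinusoidal endothelial markers summed to 3325 to 3545 in HF+CR, against 3709 to 3962 in HF livers (Fcgr2b and Lyve1 were lower). Their part was not tested.

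The effect of restriction on the 2 diets was compared in an interaction, which called none of the 9 genes and 5.75% of all genes. Its 95% intervals ran from -0.09 to 0.55 for Cpt1a, from -0.14 to 0.40 for Cpt2 and from -0.01 to 0.37 for Acat1, so that the 2 diets were not shown to differ. A comparison added after the data were seen took the mean of the restricted groups over both diets against the mean of HF and LF. In it 4 of the 9 genes were lower, against 2.7% of all genes lower and 4.76% called: Cpt2 (log2 fold change -0.32, SE 0.0645, adjusted p = 0.00853), Cpt1a (-0.36, SE 0.0756, adjusted p = 0.0115), Acadm (-0.23, SE 0.0564, adjusted p = 0.0274) and Acat1 (-0.16, SE 0.0444, adjusted p = 0.0489). The calls of Cpt1a and Cpt2 held without each array in turn, those of Acadm in 10 and of Acat1 in 3 of 18 such fits. That of Acat1 was also lost with quantile normalisation, an offset of 1, the mean of probe sets, the replicate block and the clock covariate (adjusted p from 0.0517 to 0.176). Without the 4 arrays with pancreatic genes none was called, with log2 fold changes of -0.36 for Cpt1a (adjusted p = 0.0856) and -0.25 for Cpt2 (adjusted p = 0.0835). Without the 3 arrays apart on the principal component all 4 were called (adjusted p from 0.00345 to 0.0480). Of the cell type markers Cps1 and Tat were higher and Lyve1 and Alas2 lower in this comparison, and their part was not tested.

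Voluntary running gave no call among the 9 genes in LF+Ex against LF livers, where 0.00704% of all genes were called, nor in HF+Ex against HF livers, where the share was 0% (limma, with 348 genes at an unadjusted p under 0.05). The log2 fold changes of the 9 genes ran from -0.11 (Bdh1) to 0.10 (Acadm) on the low-fat diet and from -0.07 (Bdh1) to 0.11 (Cpt1a) on the high-fat diet. Their 95% intervals reached from -0.25 to 0.27 and from -0.22 to 0.33. By unadjusted p, 0 of 9 were under 0.05 on either diet. The interaction of running with fat called none of the 9 and 0.00704% of all genes.

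Set against running instead of free feeding, restriction on the low-fat diet gave 4 lower genes of 9 in LF+CR against LF+Ex livers, with 9.31% of all genes called and 5.15% lower. These were Cpt1a (log2 fold change -0.48), Cpt2 (-0.43), Acadm (-0.32) and Acat1 (-0.22), with adjusted p of 0.0100, 0.00715, 0.0202 and 0.0370. The call of Acadm was lost without LF+Ex 1, LF+Ex 2, LF+CR 1 or LF+CR 3 (adjusted p = 0.0719, 0.0669, 0.0804 and 0.0802). That of Acat1 was lost without LF+Ex 1, LF+Ex 2, LF+Ex 3, LF+CR 1 or LF+CR 3 (adjusted p = 0.0664, 0.142, 0.0519, 0.127 and 0.109). Without the 4 arrays with pancreatic genes none of the 9 was called, and without the 3 arrays apart on the principal component all 4 calls held (adjusted p from 0.00203 to 0.0405). Beside this result, the hepatocyte markers summed to 79614 to 82311 in LF+CR, against 75892 to 77383 in LF+Ex livers, and Alas2 was the 1 erythroid marker of 3 that was lower. Of the hepatocyte markers Alb and Ttr were higher and Serpina1c was lower, and of the sinusoidal endothelial markers Fcgr2b was higher. Their part was not tested. This comparison shares the LF+CR arrays with that against LF. In HF+CR against HF+Ex livers none of the 9 passed, while 2.71% of all genes did. Acadm (log2 fold change -0.29, adjusted p = 0.0656) and Cpt1a (-0.35, adjusted p = 0.0889) had the lowest p.

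Dietary fat was compared at each regimen. In HF against LF livers none of the 9 genes was called, with 0.894% of all genes called. In HF+Ex against LF+Ex livers none was called either, with 1.75% of all genes. In HF+CR against LF+CR livers 1 of 9 was higher, Acat1, with 8.93% of all genes called and 5.62% higher. Of the cell type markers Alas2, Serpina1c and Reln were higher and Ttr was lower there. The 3 measured erythroid markers, of which Alas2 alone was called, summed to 1410.15 to 1548 in HF+CR, against 646.75 to 729.83 in LF+CR livers. Their part was not tested. Averaged over the 3 regimens, 2 of 9 were higher with the high-fat diet, with 9.41% of all genes called and 5.96% higher. They were Acat1 (log2 fold change 0.24, SE 0.0363, adjusted p = 0.00102) and Bdh1 (0.22, SE 0.0401, adjusted p = 0.00396). Both calls held without each array in turn (18 of 18 fits) and in 13 of 13 other settings, the fits without the arrays that stood apart included. Markers moved in the same comparison: 3 of 6 stellate cell markers (Col3a1, Lrat and Reln), Lyve1 and Alas2 were higher with the high-fat diet, and the hepatocyte markers Cps1 and Tat were lower. The stellate markers summed to 4204 to 6588 on the 9 high-fat arrays, against 3538 to 5344 on the 9 low-fat ones, and the hepatocyte markers to 71540 to 79469 on high-fat arrays, against 74577 to 82311 on low-fat ones. Their part was not tested. The other 7 genes had log2 fold changes from -0.06 (Hadha) to 0.12 (Acadm), and Cpt1a, the entry gate, had 0.11 (adjusted p = 0.290).

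Probe sets of a gene can read different parts of its transcripts, and 6 of the 9 genes had more than 1. The F test among the 6 groups passed for 10 of the 17 probe sets, and for 13.4% of the 24481 probe sets tested in all. For Cpt1a the brighter 2 of 3 were lower in LF+CR than in LF livers (log2 fold change -0.48 and -0.52, adjusted p = 0.0154 and 0.0120 over all probe sets), and the dimmest had -0.31 (adjusted p = 0.267). For Cpt2 the dimmer probe set had -0.23 (adjusted p = 0.377) on the low-fat and -0.42 (adjusted p = 0.0664) on the high-fat diet. For Hadhb the probe set that represents the gene had -0.19 and did not pass. The second brightest read 2893, 3129 and 3054 in LF+CR, against 4089, 3353 and 3950.4 in LF livers, without overlap (log2 fold change -0.32, adjusted p = 0.0165). The dimmest read 139 ± 26.5 in LF+CR, against 175 ± 57.0 in LF livers, with overlap. Probe sets of a gene were not tested against each other. All 3 probe sets of Acat1 were higher with the high-fat diet over the 3 regimens (log2 fold change 0.24, 0.19 and 0.42), as were both of Bdh1 (0.22 and 0.28). With restriction the Bdh1 probe sets ran apart: the brighter had -0.06 on the low-fat and -0.17 on the high-fat diet, the dimmer -0.28 and -0.00, and none of these passed. In HF+CR against LF+CR livers the dimmer was higher (0.46, adjusted p = 0.0160) while the brighter had 0.13 (adjusted p = 0.293). In LF+CR against LF livers the 3 of Acat1 ran apart, at -0.25, -0.21 and -0.05, and only the brightest passed. The second probe set of Acadl read 62.72 to 77.15, under the dim limit on all arrays, and was not tested.

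**Figure D3:**
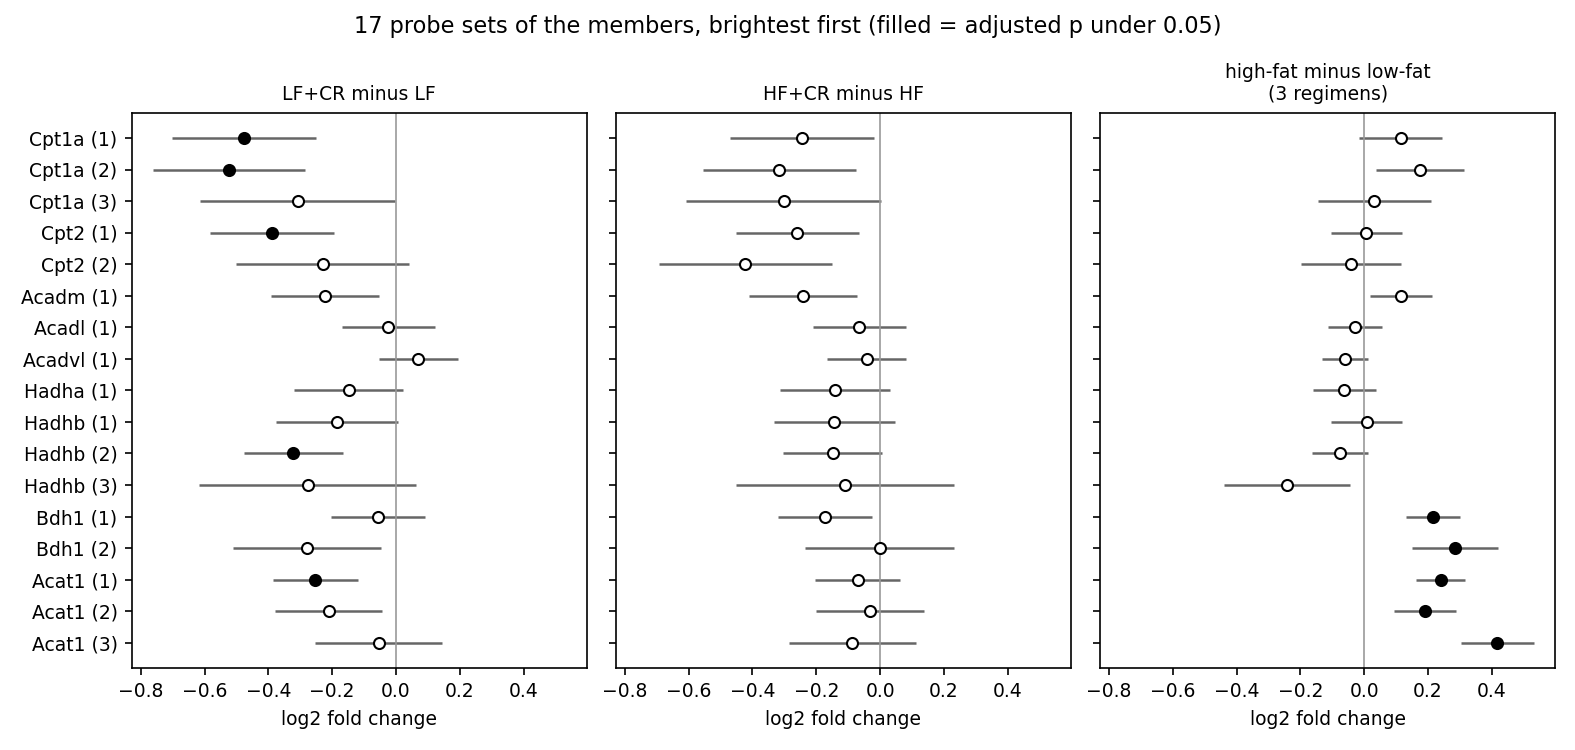
Log2 fold change with 95% interval (horizontal axis) of the 17 tested probe sets in 3 comparisons, numbered within a gene from the brightest, where a filled point has an adjusted p under 0.05. The 3 Acat1 and 2 Bdh1 probe sets are all filled for high-fat minus low-fat, and 2 of 3 Cpt1a probe sets for LF+CR minus LF.

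Other genes of the pathway were read from fixed lists. Of 21 further genes of transport, oxidation and ketone synthesis 17 were tested. In LF+CR against LF livers 6 of the 17 were lower and 1 was higher, with 5.57% of all genes called and 3.27% lower. In HF+CR against HF livers 3 were lower and none higher, with 6.07% of all genes called. Slc22a5, the plasma membrane carnitine transporter, was lower on both diets, at 373 ± 77.6 in LF+CR against 767 ± 173 in LF livers (log2 fold change -1.01, SE 0.155, adjusted p = 0.00118) and at 386 ± 20.8 in HF+CR against 602 ± 32.3 in HF livers (-0.62, SE 0.155, adjusted p = 0.0297). Slc25a20, the carnitine-acylcarnitine carrier of the inner membrane that works between Cpt1a and Cpt2, was lower on both diets as well, at 1881 ± 340.2 in LF+CR against 2495 ± 103 in LF livers (-0.42, adjusted p = 0.0226) and at 1862 ± 144 in HF+CR against 2432 ± 189 in HF livers (-0.38, adjusted p = 0.0366). Both probe sets of Slc25a20 passed on both diets, while the second one of Slc22a5 passed on the low-fat diet and had an adjusted p of 0.0501 in HF+CR against HF livers. The gene that was higher on the low-fat diet was Acsl5, a long-chain acyl-CoA synthetase (0.49, adjusted p = 0.0241). On the low-fat diet Slc22a5 was called without the 4 arrays with pancreatic genes (-0.71, adjusted p = 0.0168) and without the 3 apart on the principal component (-0.98, adjusted p = 0.00943). Slc25a20 and Acsl5 lost their calls there without the 4 (-0.27 and 0.41, adjusted p = 0.247 and 0.238) and kept them without the 3 (-0.55 and 0.49, adjusted p = 0.00564 and 0.0253). In HF+CR against HF livers Slc22a5 was called in 12 and Slc25a20 in 13 of 18 fits without 1 array. There Slc22a5 lost its call without the 3 (-0.64, adjusted p = 0.0728), and Slc25a20 kept it (-0.40, adjusted p = 0.0328).

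Within the oxidation steps, Acad11 (log2 fold change -0.34, adjusted p = 0.00689), the enoyl-CoA isomerase genes Eci1 (-0.37, adjusted p = 0.0164) and Eci2 (-0.48, adjusted p = 0.00579), and Etfdh (-0.31, adjusted p = 0.0191), which passes the electrons to the respiratory chain, were lower in LF+CR than in LF livers. Eci1 alone of these was called without the 4 arrays with pancreatic genes (-0.49, adjusted p = 0.0365), while Acad11, Eci2 and Etfdh had -0.33, -0.42 and -0.28 (adjusted p = 0.0906, 0.121 and 0.210). Without the 3 arrays apart on the principal component Eci1 alone was lost (-0.31, adjusted p = 0.0866). Hadh, the short-chain hydroxyacyl-CoA dehydrogenase, was lower in HF+CR than in HF livers (5445 ± 163 against 6673 ± 395, log2 fold change -0.29, adjusted p = 0.00554) and had a log2 fold change of 0.01 on the low-fat diet. Its call held without the 3 arrays (-0.24, adjusted p = 0.0326) and without the 4, none of which is in these groups (adjusted p = 0.0268). With the high-fat diet over the 3 regimens 4 of the 17 were higher and none lower, with 9.41% of all genes called and 5.96% higher. They were Acad9 (0.27, adjusted p = 0.00572), Eci1 (0.18, adjusted p = 0.0279), Acads (0.16, adjusted p = 0.0357) and Hadh (0.13, adjusted p = 0.0132). None of these was called without the 4 arrays (adjusted p = 0.0730, 0.139, 0.182 and 0.0950), and without the 3 arrays Acad9 alone was (0.26, adjusted p = 0.0104). Hadh was also higher in HF+Ex than in LF+Ex livers (0.27, adjusted p = 0.0168). It was called there neither without the 4 arrays (0.26, adjusted p = 0.165) nor without the 3 (0.25, adjusted p = 0.0505). No gene of the 17 passed with running on either diet. The other 4 of the 21 listed genes were not analysed here.

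The acetyl-CoA carboxylase genes, whose product malonyl-CoA inhibits the Cpt1a enzyme, were higher where Cpt1a was lower on the low-fat diet. Acaca read 1635 ± 422 in LF+CR, against 569.7 ± 57.1 in LF livers (SD, n = 3 each; log2 fold change 1.47, SE 0.214, adjusted p = 0.000717), and Acacb 743 ± 176 in LF+CR, against 373 ± 34.0 in LF livers (0.95, SE 0.206, adjusted p = 0.0128). On the high-fat diet Acaca read 581 ± 57.6 in HF+CR and 581 ± 129 in HF livers, and Acacb read 295 ± 62.1 in HF+CR and 262 ± 79.1 in HF livers. The dimmer probe set of Acaca was also higher in LF+CR (0.87, adjusted p = 0.000967), while that of Acacb was not (0.01). Acaca was called without the 4 arrays with pancreatic genes (1.32, adjusted p = 0.0257) and Acacb was not (0.71, adjusted p = 0.213), and without the 3 arrays both were (1.62 and 1.06, adjusted p = 1.4e-05 and 0.00645). Mlycd, the decarboxylase that removes malonyl-CoA, had -0.31 in LF+CR against LF livers and did not pass (adjusted p = 0.0571). Acaca and Acacb were lower in HF+CR than in LF+CR livers (-1.44 and -1.28, adjusted p = 0.000712 and 0.00129). Over the 3 regimens they were lower with the high-fat diet (-0.45 and -0.71, adjusted p = 0.0332 and 0.00205). Without the 4 arrays Acaca lost this last call (-0.33, adjusted p = 0.223) and Acacb kept it (-0.65, adjusted p = 0.0289).

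None of the 8 regulator genes passed with restriction or running on either diet against free feeding. Set against running, Rxra (log2 fold change -0.34, adjusted p = 0.0295) and Sirt3 (-0.36, adjusted p = 0.0483) were lower in LF+CR than in LF+Ex livers, and neither was called without the 4 arrays with pancreatic genes (adjusted p = 0.191 and 0.233). Ppara, the gene of PPARalpha, varied widely within the LF+CR group, from 829 to 2406, against 1628 to 2019 in LF livers (log2 fold change -0.51, SE 0.282, adjusted p = 0.375). Ppargc1a, a coactivator gene, was lower in HF+CR than in LF+CR livers, at 115 ± 6.78 against 192 ± 50.5 (log2 fold change -0.64, adjusted p = 0.0195). It read 110.55 to 122.69 in HF+CR livers, not far above the dim limit of 88.22 to 97.574. In LF+CR livers it read 160, 166 and 250. Ppargc1a was called in 15 of 18 fits without 1 array. The call held without the 4 arrays (-0.45, adjusted p = 0.0499) and without the 3 (-0.73, adjusted p = 0.0369). The citric acid cycle, which takes up acetyl-CoA not used for ketones, was read from 12 tested genes for comparison. Of these, 2 were higher and none lower in LF+CR against LF livers, Idh3a (0.55, adjusted p = 0.000522) and Mdh2 (0.48, adjusted p = 0.00418), and none passed in HF+CR against HF livers. Of all genes 5.57% were called in the first comparison and 6.07% in the second. Idh3a was called without the 4 arrays with pancreatic genes (0.58, adjusted p = 0.0168) and Mdh2 was not (0.52, adjusted p = 0.0591), and without the 3 arrays both were (0.48 and 0.38, adjusted p = 0.00573 each). For Idh3a the other 3 probe sets had 0.05 to 0.12 and did not pass. In LF+CR against LF+Ex livers 4 of the 12 were higher and none lower, with 9.31% of all genes called. Cs had the largest difference of them (0.70, adjusted p = 0.0107). It was called neither without the 4 arrays (0.63, adjusted p = 0.141) nor without the 3 (0.54, adjusted p = 0.0551).

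**Figure D4:**
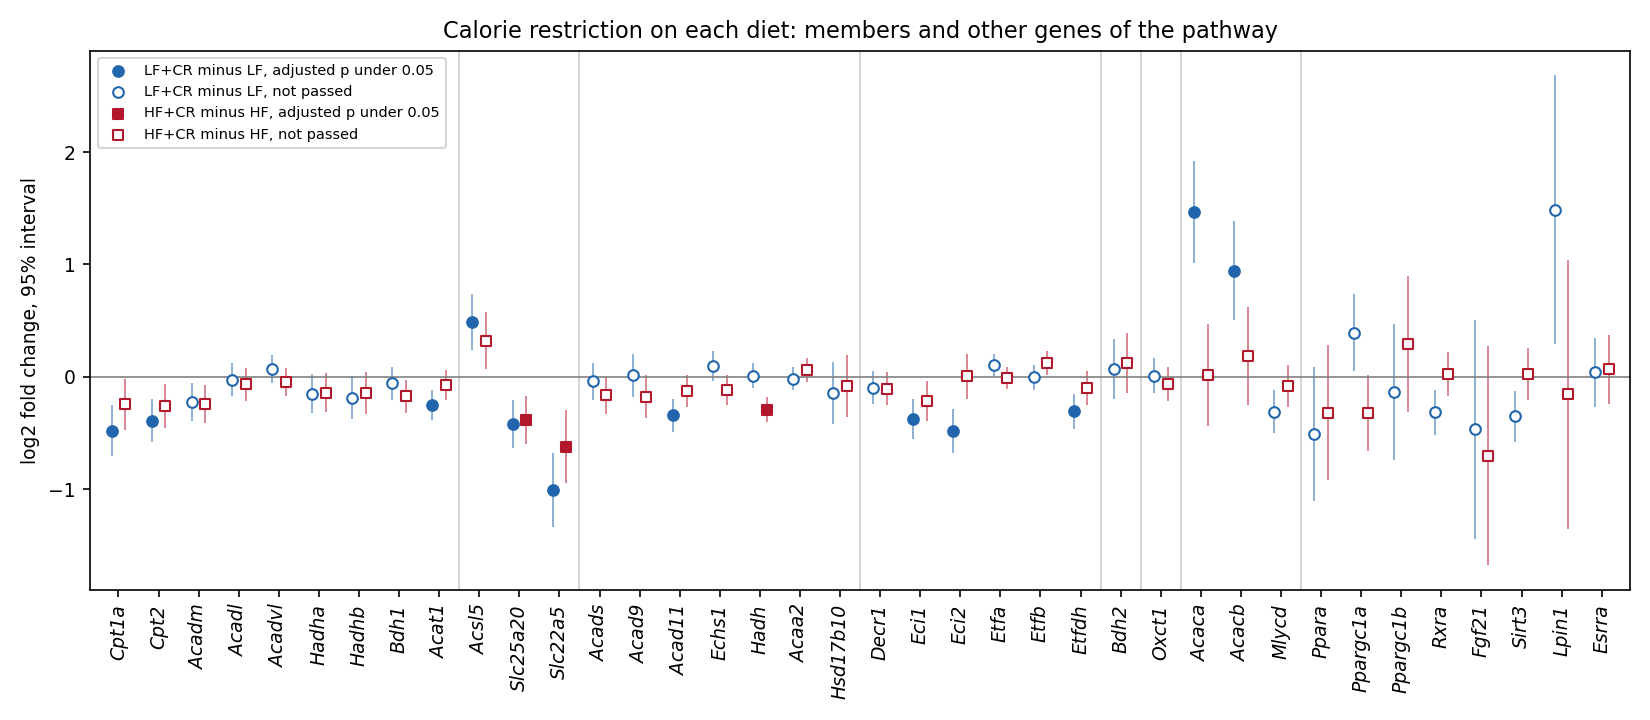
Log2 fold change with 95% interval (vertical axis) of the 9 genes, leftmost, and 29 others of the pathway, with LF+CR minus LF as circles and HF+CR minus HF as squares, filled where adjusted p was under 0.05. Slc25a20 and Slc22a5 are filled below 0 on both diets, and Acaca and Acacb are filled above 0 on the low-fat diet only.

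As a description over the 18 arrays, the genes whose log2 values ran closest to the mean of the 9 standardised members were Aldh3a2 (Pearson's r = 0.925), Hsd17b4 (0.924), Zfr (0.898), Ttpa (0.890) and Tlcd4 (0.878). Aldh3a2 encodes a fatty aldehyde dehydrogenase and Hsd17b4 a peroxisomal enzyme of fatty acid oxidation. Among the members, the nearest to Cpt1a was Cpt2 (r = 0.671), but within groups that pair had r of -0.19. The nearest to Acadm was Cpt2 (0.831), to Bdh1 Acat1 (0.654) and to Acat1 Acadm (0.758). Within groups these pairs had r of 0.635, -0.04 and 0.680, and the nearest to Bdh1 was Hadha (0.731). Acadvl was the member least tied to the rest, with Acadl as its nearest (0.510).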

How the data were processed

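The authors deposited linear-scale intensities of all probe sets for 18 Affymetrix arrays of liver total RNA (Trizol, biotinylated cRNA, per the labels' protocols). The sources used here do not give how they were summarised and normalised. No further normalisation was applied, and 16 was added to each intensity before log2 was taken. Of 45101 probe sets, 64 controls, 932 with several symbols and 9160 with none were left out. A gene was represented by its probe set with the highest mean (18193 genes) and tested where this exceeded the 40th percentile (88.22 to 97.574) on 3 or more arrays, which kept 14201 and removed 3992.

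A limma 3.58.1 fit (R 4.3.3) with 1 mean per group on all 18 arrays (12 residual and 3.64 prior degrees of freedom) gave every comparison, with Benjamini-Hochberg adjustment over all genes. The number of arrays limits the precision. The members, the gene lists and the comparisons were chosen with earlier results of these data known. Pathway genes were named by rule, those passing in a comparison, with the largest log2 fold change first and up to 4 a comparison, and Acsl5, Acad11, Eci2, Etfdh, Acads, Mdh2, Mlycd, Ppara, Rxra and Sirt3 after their values were seen. Of the results of the named genes against running and between the diets, only some are given. Cell type markers came from fixed lists. Replicate numbers were not used as pairs: arrays of the same number in other groups had a mean correlation of -0.05 in their deviations (-0.41 to 0.33 over 45 pairs), and 2 of 18 arrays were nearest to one of their own number. No 2 arrays held the same values. The sources used here give no batch or scan date. The alternatives tried were normalisation, offset, filter, summary of probe sets, variance model, array weights, the samples in the fit, a replicate block and leaving out arrays.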

Additional observations from a re-analysis of the deposited data

Results flagged for a closer look

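The effect of calorie restriction differed between the diets for 5 genes around the pathway, by the interaction term of the limma fit (restriction on the high-fat diet minus restriction on the low-fat diet, log2), and for none of the 9 members. Of 17 genes of transport, oxidation and ketone synthesis 1 had a positive and 1 a negative call. Called as well were 1 of 3 genes of malonyl-CoA control, 2 of 12 of the citric acid cycle and none of 8 regulators. Of all genes 5.75% were called. Acaca, an acetyl-CoA carboxylase gene, had an interaction of -1.45 (adjusted p = 0.0115), called in 18 of 18 fits without 1 array and not without the 4 arrays with pancreatic genes (-1.31, adjusted p = 0.0633). Idh3a, of the citric acid cycle, had -0.79 (adjusted p = 0.000612), but -0.18 with the mean of its probe sets, where it was not called (adjusted p = 0.0845). Mdh2, of the same cycle, had -0.552 (adjusted p = 0.0168), called in 17 of 18 fits without 1 array and not without the 4 arrays (-0.59, adjusted p = 0.0724). Hadh had -0.301 (adjusted p = 0.0282), called in 11 of the 18 fits and neither without the 4 arrays (-0.28, adjusted p = 0.144) nor without the 3 apart on the principal component (-0.25, adjusted p = 0.136). Eci2 had 0.486 (adjusted p = 0.0405), with 3498 ± 324 in HF+CR against 3488 ± 296 in HF livers and 3013 ± 391 in LF+CR against 4198 ± 226 in LF livers. Its call was made in 6 of the 18 fits, and neither without the 4 arrays (0.42, adjusted p = 0.166) nor without the 3 (0.36, adjusted p = 0.199).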

How the results depend on the processing

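No log2 fold change of a member that was called changed its sign in any setting. The number of members called moved by over 1.5 times as follows. With array weights it was 1 in HF against LF, 5 in LF+CR against LF, 3 in HF+CR against HF, 3 in HF+CR against HF+Ex, 2 in HF+Ex against LF+Ex and 7 for restriction over both diets. With the mean of all probe sets it was 1 in LF+CR against LF, 1 in HF+CR against HF+Ex, 2 in HF+CR against LF+CR and 1 in HF+Ex against LF+Ex. In fits of only the groups compared it was 0 in LF+CR against LF, in LF+CR against LF+Ex and in HF+CR against LF+CR. Without the 4 arrays with pancreatic genes it was 0 in LF+CR against LF, in LF+CR against LF+Ex, for restriction over both diets and among the 6 groups. Without the 3 arrays apart on the principal component it was 1 in HF+CR against HF+Ex and 3 among the 6 groups. With log2 Arntl minus log2 Dbp as a covariate for clock phase it was 1 in HF+CR against HF and 2 in both comparisons of restriction with running. It was 1 in HF+CR against HF+Ex with centred arrays, and 1 in HF+Ex against LF+Ex with quantile normalisation, an offset of 64, the 60th percentile, and trend and robust variance. With replicate number as a block (replicate block) it was 1 in HF+Ex against LF+Ex. With this block it stayed at 3 in LF+CR against LF and at 2 for the average effect of fat. It moved by less than 1.5 times, from 4 to 3, in LF+CR against LF+Ex and for restriction over both diets, where Acat1 lost its call (adjusted p = 0.0614 and 0.0792). Replicate numbers do not mark pairs. The exclusions of arrays, the covariate and the comparison over both diets were chosen after seeing the data, and the cause of these moves was not tested.

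Without each array in turn, the number of members called ran from 0 to 4 in LF+CR against LF, 0 to 2 in HF+CR against HF, 2 to 5 in LF+CR against LF+Ex, 0 to 1 in HF+CR against HF+Ex, 1 to 2 in HF+CR against LF+CR, 0 to 1 in HF+Ex against LF+Ex, 2 to 3 for the average effect of fat, 2 to 5 for restriction over both diets and 5 to 6 among the 6 groups, and was 0 in the others. Counts over all genes moved more: over the settings other than single arrays left out, 189 to 1435 (791 in the fit reported) in LF+CR against LF, 515 to 2174 (862) in HF+CR against HF, 13 to 988 (127) in HF against LF, 0 to 7 (1) in LF+Ex against LF, 463 to 2539 (1322) in LF+CR against LF+Ex, 38 to 1067 (385) in HF+CR against HF+Ex, 440 to 2029 (1268) in HF+CR against LF+CR, 52 to 1224 (248) in HF+Ex against LF+Ex, 481 to 2616 (1336) for the average effect of fat, 282 to 1592 (816) for restriction by fat, 0 to 2 (1) for running by fat, 272 to 1783 (676) for restriction over both diets and 647 to 4743 (2034) among the 6 groups.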
